A study of Sus scrofa with 63 samples.

Results

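The genes described here encode surface proteins of leukocytes and the cytokines and receptors through which immune cells signal. They were taken from the array by name. A gene was a member when a probe-set carried its symbol alone and the symbol had the form of a CD antigen, a Toll-like receptor (TLR), a CC or CXC chemokine (CCL, CXCL), a chemokine receptor (CCR, CXCR), an interleukin (IL) or an interleukin receptor. CD8A was left out. The rule used no measured value and found 101 of the 6765 genes that have a probe-set with a single symbol. These 101 genes are covered by 142 of the 23935 probe-sets other than controls, and each gene is represented by its probe-set with the highest mean over all arrays.

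All animals were German Landrace offspring of gilts fed the high protein (HP) diet with 30% crude protein during gestation, and RNA came from whole liver. There were 16 fetuses at 94 days post conception (94 dpc) and 16, 15 and 16 animals at 1, 28 and 188 days after birth (dpn), with 1 array per animal. Offspring of the adequate protein group were not analysed here, so each difference is one between ages within HP offspring. The fetuses came by Caesarean section from other sows than the later stages and were killed by injection, piglets at 1 dpn were killed by injection with other agents, and animals at 28 and 188 dpn were bled after an overnight fast. Fetuses and newborns were chosen as light and heavy sibs, and piglets kept beyond the first days were fostered by sows on the adequate diet. Age cannot be told apart from these differences. Sex, mother and sib pair are not in the labels used here. Sibs were sampled, and the study spread piglets of each litter over the stages after birth. The animals are therefore not all independent, within a stage or between stages after birth.

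The fetal liver is a site of blood formation, and the liver after birth holds resident macrophages (Kupffer cells), endothelium that filters blood from the gut, and T, NK and B lymphocytes. Chemokines are secreted proteins that draw leukocytes carrying the matching receptor. Toll-like receptors bind microbial products, and interleukins act on neighbouring cells through receptors that usually have several chains. CD antigens are proteins named for the antibodies that bind them. Some mark 1 kind of leukocyte, and others, such as the tetraspanins, occur on most cells including hepatocytes.

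Values are log2 signals as deposited. Each array's background, set so that 95% of its 23 controls with no target in the pig lay below it, averaged 6.10, 5.83, 5.65 and 5.64 at 94 dpc and 1, 28 and 188 dpn. The array medians averaged 7.38, 7.23, 6.83 and 6.72. The excess of 3′ over 5′ signal of control RNAs added to the samples averaged 0.33, 1.12, 1.35 and 1.05, and its part in the results could be fitted only from 1 dpn onwards. The same excess for the liver's own actin averaged 2.44, 1.59, 3.66 and 4.10. Its ranges at 1 dpn (0.75 to 3.16) and 28 dpn (3.15 to 4.02) hardly overlapped. It was not fitted, and between these stages it cannot be told apart from age. Array 6 of 94 dpc stood apart. It held the lowest 94 dpc signal of all 9 macrophage markers, with a linear sum of 2400 against a stage median of 17000. Its actin 3′ signal was 4.30 above the 5′ signal against a stage mean of 2.44, and 32 of the 57 members tested in at least 1 comparison were lowest on it. Values without this array are given where they matter. All 6 hepatocyte markers on the array, among them ALB, were tested in every comparison, and their summed linear signal had medians of 388000, 295000, 248000 and 267000 in order of age. Of these 6 markers 4 were lower in period I, 4 in period II and all 6 over the whole span, beside 34.0%, 42.9% and 53.1% of all probe-sets tested. Their median change over the whole span was −0.45, close to the −0.369 of all probe-sets tested. In whole liver, fewer cells of a type and less RNA per cell cannot be told apart, which applies to every difference below.

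A member was taken as present at a stage when 50% or more of its arrays lay above background. By this measure 57 of the 101 members were present at all 4 stages, 26 at 1 to 3 stages and 18 at none. In order of age 65, 71, 75 and 76 were present. All 16 widely expressed surface proteins were present at all 4 stages. The soluble interleukins were least often so, with 5 of 18 at all 4 stages and 7 at none. IL13 and IL12B, which steer opposite kinds of T helper response, were above background on no array, so nothing about their change can be read from these arrays.

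There were 4 comparisons, from 94 dpc to 1 dpn (period I), 1 dpn to 28 dpn (period II), 28 dpn to 188 dpn (period III) and 94 dpc to 188 dpn (the whole span). Testing required a signal over the array median in 50% or more of the animals of either stage compared. Calls used limma with a Benjamini-Hochberg adjustment over all probe-sets tested and a threshold of 0.05. The filter passed 57 members in at least 1 comparison and 44 in none. Since a gene can pass through its higher stage alone, counts are also given for members that passed in both stages.

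In period I, 14 of 44 tested members were higher at 1 dpn, 11 were lower and 19 did not pass. The share called over all 12839 probe-sets tested was 56.9%, and that of the members was 56.8%. Higher calls made up 22.9% of all probe-sets tested and lower calls 34.0%. The median change of the tested members was 0.02 against −0.097 for all probe-sets tested. Of the 34 members that passed in both stages, 11 (32.4%) were higher and 8 (23.5%) lower, beside 22.0% and 33.2% of all such probe-sets. Another 6 passed through 1 dpn alone, with 3 of the higher calls, and 4 through 94 dpc alone, with 3 of the lower calls. The arrays did not overlap for 2 members that were higher and for none that was lower, beside 1.85% and 3.20% of all probe-sets tested. The share of members called in period I was close to that of all probe-sets tested.

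In period II, 39 of 56 tested members were higher at 28 dpn and 6 were lower, while 28.8% of all 13078 probe-sets tested were higher and 42.9% lower. The share called in either direction was 71.7% over all probe-sets and 80.4% over the members. The median change was 0.75 for the tested members and −0.145 for all probe-sets tested. Of 38 members that passed in both stages, 25 (65.8%) were higher and 4 (10.5%) lower, beside 29.3% and 41.0% of all such probe-sets. Another 16 passed through 28 dpn alone, and 14 of the 39 higher calls came from these. The arrays of both stages did not overlap for 13 members that rose and 2 that fell, against 4.95% and 6.74% of all probe-sets tested.

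Period III ran the other way. Of 55 tested members 29 were lower at 188 dpn, 6 were higher and 20 did not pass, beside 22.5% lower, 12.3% higher and 34.7% called over all 12418 probe-sets tested. The median change was −0.32 for the members and −0.065 over all. Of 51 members that passed in both stages, 26 (51.0%) were lower and 6 (11.8%) higher, beside 22.1% and 12.4% of all such probe-sets. No member was free of overlap between 28 and 188 dpn, where 0.395% of all probe-sets tested were higher and 0.862% lower without overlap.

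Over the whole span, 34 of 53 tested members were higher at 188 dpn than at 94 dpc and 11 were lower. Over all 13377 probe-sets tested, 80.1% were called, 27.0% as higher and 53.1% as lower. The median change was 0.77 for the members and −0.369 for all. Of 37 members that passed in both stages, 23 were higher and 10 lower, beside 26.8% and 53.2% of all such probe-sets, and the other 11 higher calls passed through 188 dpn alone. There were 10 members that rose and 3 that fell without overlap of the arrays, against 7.80% and 16.1% of all probe-sets. The whole span and the periods share arrays, so their counts are not independent of each other.

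With no filter on level, all 101 members could be tested among 23935 probe-sets. In period I 19 were higher and 16 lower, beside 13.2% and 21.7% of all probe-sets. In period II 44 were higher and 12 lower, beside 16.3% and 33.1%. In period III 5 were higher and 31 lower, beside 5.77% and 11.1%, and over the whole span 38 were higher and 21 lower, beside 15.9% and 45.5%.

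The scaling of the arrays moved these backgrounds. With quantile normalization the median change over all probe-sets became −0.02, 0.02, 0.00 and −0.01 in the order of the comparisons above. The higher share of all calls went from 40.2, 40.1, 35.4 and 33.7% to 48.2, 51.5, 47.3 and 49.1%. With each array centred on its median it became 50.9, 54.6, 56.2 and 53.6%. Among the members, 56.0, 86.7, 17.1 and 75.6% of calls were higher as deposited, and 59.3, 91.5, 17.6 and 80.0% with quantile normalization. With centring the members' shares were 63.0, 91.5, 21.4 and 84.8%.

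**Figure D1:**
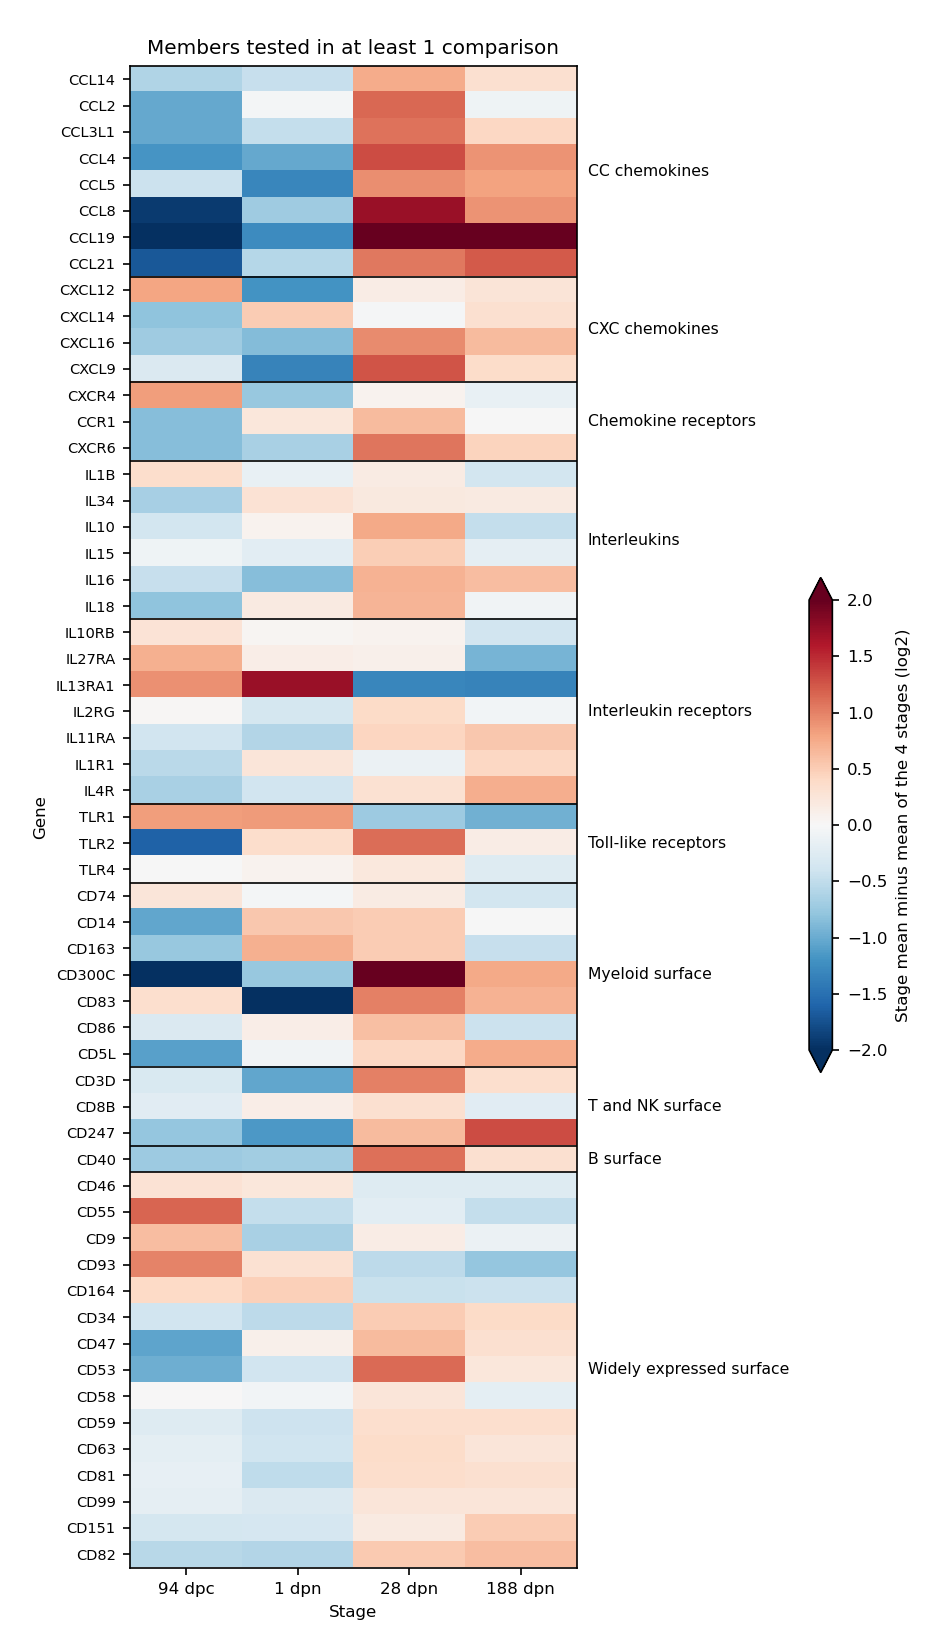
Mean log2 signal of each of the 57 members tested in at least 1 comparison at each of the 4 stages, as the difference from that gene's mean over the stages (colour, log2 scale, ends of the scale at −2 and 2). Rows are grouped by role. The CC chemokines are blue or pale at 94 dpc and 1 dpn and red at 28 dpn, and IL13RA1 and TLR1 show the opposite order.

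**Figure D2:**
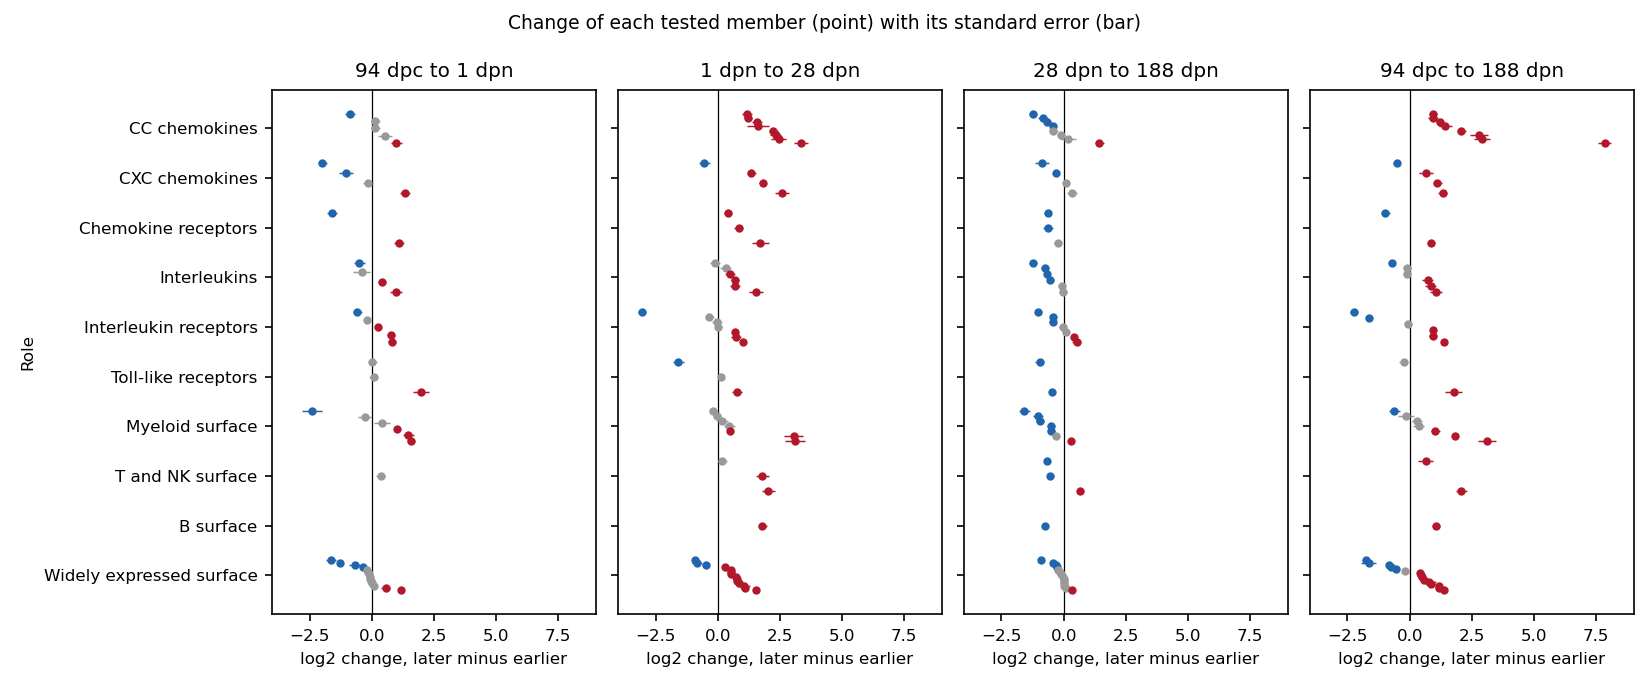
Change of each tested member on the log2 scale (later minus earlier stage, x axis) by role (y axis) in the 4 comparisons. Points are limma estimates and bars their standard errors, red for higher, blue for lower and grey for not passed. All 8 tested CC chemokines lie right of 0 from 1 dpn to 28 dpn, and the point at 7.84 in the last panel is CCL19.

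The CC chemokines rose together after birth. Of 12 on the array, 8 were tested in period II and all 8 were higher at 28 dpn, with a median change of 1.93, and all 8 tested over the whole span were higher at 188 dpn. CCL8, CCL19 and CCL21 entered period II through 28 dpn alone, where they are high, so the filter fixed part of this count. With no filter 8 of 12 were higher at 28 dpn and none lower, with a median change of 1.39, and 9 of 12 were higher over the whole span. The counts of 8 held with quantile normalization and with centring. Over all probe-sets tested, 28.8% were higher in period II and 27.0% over the whole span. In period I 1 of 5 tested CC chemokines was higher and 1 lower, beside 22.9% and 34.0% of all probe-sets tested. In period III 1 of 8 was higher and 4 lower, beside 12.3% and 22.5%.

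CCL19, which guides dendritic cells and T cells through CCR7, had the largest change of any member. Its log2 signal was 2.42 to 5.38 at 94 dpc with a median of 4.00, 4.39 to 7.90 at 1 dpn (median 7.15), 9.30 to 11.15 at 28 dpn (median 10.32) and 10.83 to 12.59 at 188 dpn (median 11.57). It was above background on 0 of 16, 13 of 16, 15 of 15 and 16 of 16 arrays. The ranges of 1 and 28 dpn lay apart, as did those of 94 dpc and 188 dpn, while 28 and 188 dpn overlapped. Because no fetal array was above background, the fetal level is only a bound. Set against that background, CCL19 was at least 44.6-fold higher at 188 dpn than at 94 dpc (fitted log2 change 7.84, adjusted p = 1.69e-23), where the measured means were 3.74 and 11.58. It rose by 3.34 ± 0.28 (SE) in period II (adjusted p = 7.22e-12) and by 1.44 ± 0.17 in period III (adjusted p = 8.51e-08). In period I it did not pass the filter, and the bound was at least 1.63-fold.

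CCL21, the other ligand of CCR7, was 2.85 to 7.29 at 94 dpc (median 4.72), 3.67 to 8.05 at 1 dpn (6.01), 5.62 to 8.68 at 28 dpn (7.81) and 4.89 to 8.86 at 188 dpn (7.92). It was above background on 2, 8, 13 and 15 arrays, so the newborns split evenly into arrays with and without a signal, and all neighbouring stages overlapped. CCL21 rose by 1.62 ± 0.44 in period II (adjusted p = 0.00161), and its change of 0.18 ± 0.31 in period III did not pass (adjusted p = 0.696). CCR7, the receptor of both, was above background on 2, 3, 7 and 4 arrays and passed the filter in no comparison.

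CCL8, CCL4, CCL5 and CCL2 attract monocytes, T cells and NK cells. The log2 signal of CCL8 was 2.90 to 7.28 at 94 dpc (median 5.69), 3.21 to 7.74 at 1 dpn (6.94), 8.04 to 9.86 at 28 dpn (9.38) and 7.52 to 9.46 at 188 dpn (8.11). Every array at 28 dpn lay above every newborn array, and every array at 188 dpn above every fetal one. CCL8 rose by 2.45 ± 0.31 in period II (adjusted p = 1.96e-08) and fell by 0.83 on the log2 scale in period III (adjusted p = 0.00152), although this fall did not pass when all 63 arrays were fitted together (adjusted p = 0.0564).

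CCL4 was 7.10 to 8.92 at 94 dpc (median 8.24), 7.23 to 9.41 at 1 dpn (8.39), 9.54 to 11.61 at 28 dpn (10.69) and 9.36 to 11.26 at 188 dpn (10.31). The fetal and newborn arrays overlapped almost entirely, and both older stages lay above the fetal range. Its rise in period II was 2.34 ± 0.22 (5.05-fold, adjusted p = 3.97e-11). CCL3L1, a relative of CCL4 chosen after its values were seen, rose by 1.57 ± 0.20 in the same period, and cross-hybridisation between these related genes was not tested.

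CCL5 dipped at birth. It was 7.29 to 9.71 at 94 dpc (median 8.66), 6.67 to 9.23 at 1 dpn (7.63), 9.30 to 10.74 at 28 dpn (9.92) and 8.92 to 10.44 at 188 dpn (9.75). The newborn arrays overlapped the fetal ones but none reached the lowest array at 28 dpn. CCL5 fell by 0.89 on the log2 scale in period I (adjusted p = 0.000354) and rose by 2.24 ± 0.18 in period II (adjusted p = 1.29e-12).

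CCL2 had a single peak at 28 dpn. Its medians were 7.66, 8.81, 9.91 and 8.65 in order of age, and neighbouring stages overlapped (6.48 to 8.63, 7.34 to 9.75, 9.01 to 10.33 and 7.70 to 9.50). It rose by 0.99 ± 0.22 and 1.18 ± 0.19 in periods I and II and fell by 1.23 on the log2 scale in period III (adjusted p = 4.04e-07). CCL14, a chemokine present in plasma, rose by 1.21 ± 0.17 in period II and fell by 0.43 in period III. This fall did not pass with centring (adjusted p = 0.0838) or with the 3′ to 5′ covariate (adjusted p = 0.0648). Of the untested CC chemokines, CCL28, made by epithelia, was above background on 1, 3, 8 and 13 arrays and CCL24, which attracts eosinophils, on 8, 7, 11 and 11.

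**Figure D3:**
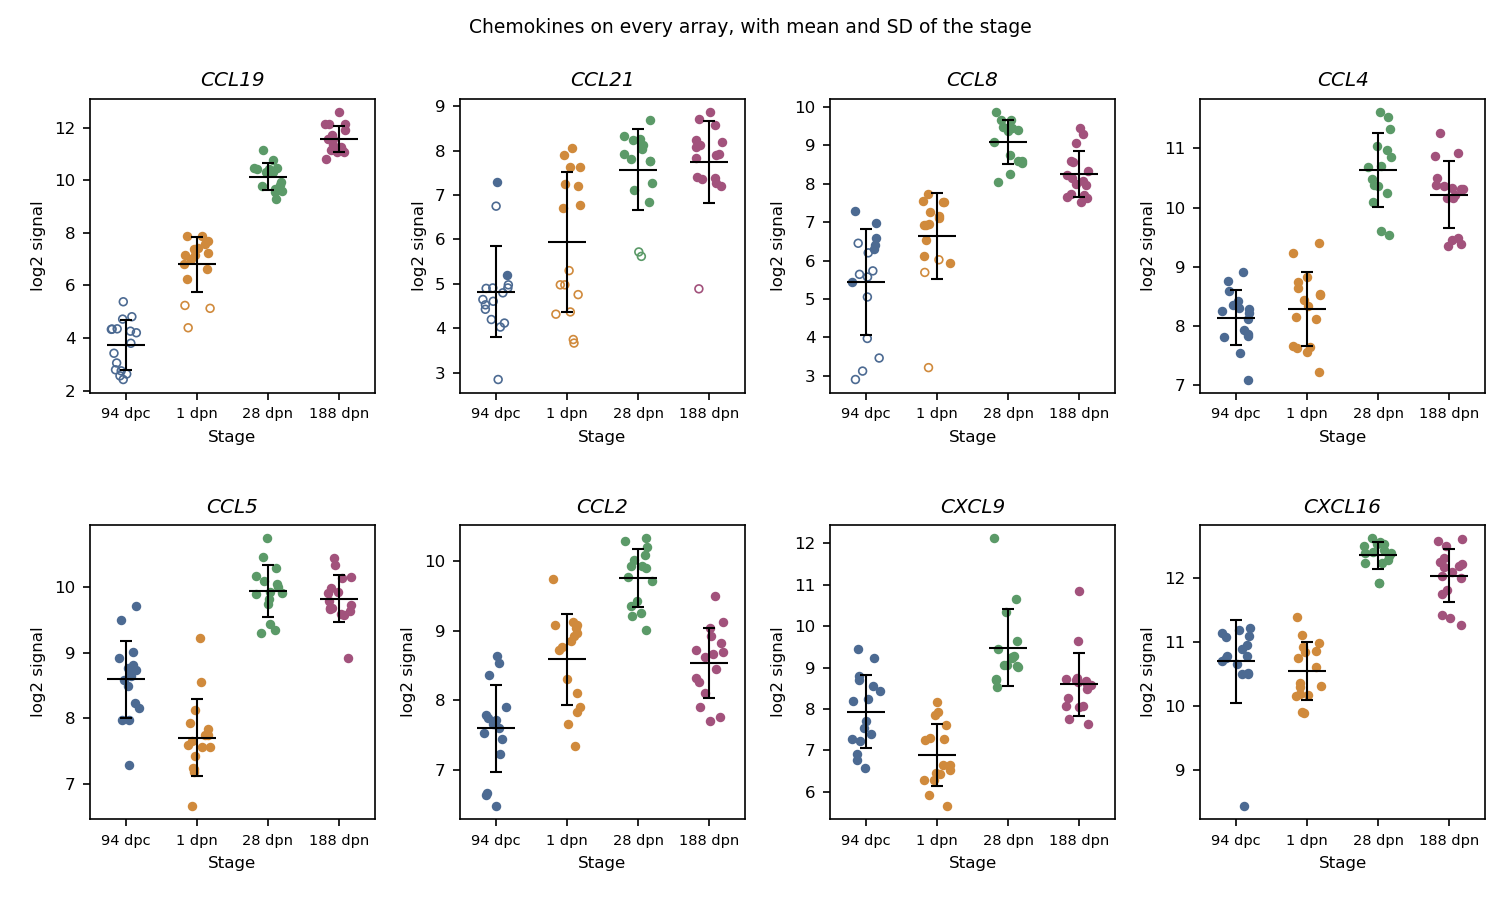
Log2 signal (y axis) of 8 chemokines on every array of the 4 stages (x axis). Filled points are above the array's background, open points are not, and black bars give the mean and SD of the stage (n = 16, 16, 15 and 16). CCL19 is open on all 16 fetal arrays, and for CCL8, CCL4, CCL5, CXCL9 and CXCL16 all points of 28 dpn lie above all points of 1 dpn.

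The CXC chemokines did not move as a group. Of 7 on the array 4 were tested. In period I CXCL14 was higher and CXCL12 and CXCL9 were lower, in period II CXCL9, CXCL16 and CXCL12 were higher and CXCL14 lower, and in period III CXCL9 and CXCL16 were lower. CXCL9 is induced by interferon gamma and attracts activated T cells through CXCR3. Its log2 signal was 6.56 to 9.44 at 94 dpc (median 7.95), 5.66 to 8.16 at 1 dpn (6.64), 8.54 to 12.12 at 28 dpn (9.24) and 7.63 to 10.85 at 188 dpn (8.59). CXCL9 fell by 1.05 on the log2 scale in period I (adjusted p = 0.00176) and rose by 2.59 ± 0.29 in period II (adjusted p = 2.1e-09) with no overlap. Its newborn median lay below the array medians of 7.05 to 7.41 at that stage, so the filter can favour both changes. Its decrease in period III (−0.88, adjusted p = 0.0171) did not pass with the 3′ to 5′ covariate (adjusted p = 0.0838), and its increase over the whole span (0.66, adjusted p = 0.0327) did not pass without array 6 (adjusted p = 0.0557).

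CXCL16, a transmembrane chemokine that also acts as a scavenger receptor, was 8.45 to 11.23 at 94 dpc (median 10.79), 9.90 to 11.40 at 1 dpn (10.49), 11.93 to 12.62 at 28 dpn (12.40) and 11.27 to 12.61 at 188 dpn (12.13). The 2 younger stages overlapped, and both older stages lay above the fetal range. CXCL16 rose by 1.81 ± 0.13 in period II (3.5-fold, adjusted p = 9.57e-14). Its decrease in period III (−0.32) did not pass with centring (adjusted p = 0.197) or with the 3′ to 5′ covariate (adjusted p = 0.145). Its receptor CXCR6, carried by liver T and NK cells and named here after its values were seen, rose by 1.72 ± 0.33 in the same period (adjusted p = 2.22e-05) and fell by 0.63 in period III (adjusted p = 0.0214). CXCR6 passed the filter through 28 dpn alone in both periods, so the filter favoured both the rise and the fall.

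CXCL12 retains blood precursors through CXCR4. CXCR4 and the brighter of the 2 CXCL12 probe-sets had their highest median in the fetus. The dimmer CXCL12 probe-set fell by 0.95 in period I and rose by 1.45 in period II, and at 188 dpn it was higher than in the fetus. CXCL12 was 11.28 to 13.16 at 94 dpc (median 12.81), 9.75 to 11.37 at 1 dpn (10.78), 11.23 to 12.63 at 28 dpn (12.10) and 11.68 to 12.52 at 188 dpn (12.12). CXCR4 was 7.56 to 9.51 at 94 dpc (8.80), 6.25 to 8.26 at 1 dpn (7.22), 7.39 to 8.65 at 28 dpn (7.99) and 6.34 to 8.71 at 188 dpn (7.89). The newborn stage was the lowest for both, and the fetal and newborn arrays overlapped only through array 6. From 94 dpc to 1 dpn CXCL12 fell by 1.98 on the log2 scale (3.95-fold lower, adjusted p = 2.9e-11) and CXCR4 fell by 1.60 (3.03-fold lower, adjusted p = 1.3e-08). In period II they rose by 1.35 ± 0.17 and 0.84 ± 0.18. Over the whole span CXCR4 fell by 0.99, whereas the 2 probe-sets of CXCL12 disagreed, with −0.52 and 0.69, so no direction is given for it. CXCL14, made by epithelia and fibroblasts, rose by 1.32 ± 0.20 in period I, but its other probe-set gave −0.05, and its decrease in period II (−0.54, adjusted p = 0.0279) passed neither with quantile normalization nor with centring.

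Of 7 chemokine receptors 3 were tested in period II, and CCR1, CXCR4 and CXCR6 were all higher at 28 dpn, beside 28.8% of all probe-sets tested. CXCR6 entered through 28 dpn alone, where it is high, so the filter fixed part of this count. With no filter 3 of 7 were higher and none lower. CCR1, a receptor of CCL5 and related chemokines on monocytes, was 5.77 to 7.77 at 94 dpc (median 7.09), 6.60 to 8.91 at 1 dpn (8.01), 7.97 to 9.03 at 28 dpn (8.39) and 6.72 to 8.42 at 188 dpn (7.74). It rose by 1.09 ± 0.19 in period I (adjusted p = 1.02e-05) and fell by 0.65 in period III (adjusted p = 0.000156). Its rise of 0.41 in period II did not pass without arrays 25, 27 and 28 of 1 dpn (adjusted p = 0.0659). The fetal median of CCR1 lay below the fetal array medians of 7.27 to 7.52, so the filter can favour its rise in period I. CCR2, the receptor of CCL2, and CCR9 were above background on 9 or more arrays of each stage but passed the filter in no comparison.

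Of the 18 interleukins 6 passed the filter at some stage, IL1B, IL10, IL15, IL16, IL18 and IL34. In period II 4 of 6 were higher and none lower, with 2 not passed, beside 28.8% higher and 42.9% lower over all probe-sets tested. In period III none was higher and 4 were lower, beside 12.3% and 22.5%. With no filter on level, 4 of 18 were higher and 2 lower in period II, with a median change of −0.02, beside 16.3% and 33.1% of all probe-sets. IL10, the main anti-inflammatory interleukin of macrophages and T cells, was 6.27 to 7.68 at 94 dpc (median 6.87), 6.68 to 8.32 at 1 dpn (7.35), 7.28 to 8.92 at 28 dpn (8.17) and 5.97 to 7.44 at 188 dpn (6.78). Its peak lay at 28 dpn, with 188 dpn back in the fetal range. IL10 rose by 0.69 ± 0.17 in period II (adjusted p = 0.000525) and fell by 1.23 in period III (SE 0.15, adjusted p = 8.49e-08). Its rise of 0.43 in period I (adjusted p = 0.0238) did not pass without 94 dpc arrays 6 and 13 (adjusted p = 0.0514). The fetal median of IL10 also lay below the fetal array medians of 7.27 to 7.52, and the filter can favour such a rise.

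IL18, which is stored as a precursor in macrophages and induces interferon gamma, also had its highest median at 28 dpn, with medians of 8.90, 9.57, 10.20 and 9.20. IL18 rose by 0.97 ± 0.24 in period I (adjusted p = 0.000739) and fell by 0.75 in period III (adjusted p = 0.000613), its whole-span change was 0.73 ± 0.22 (adjusted p = 0.00287), and its ranges overlapped throughout. IL16, a T cell attractant that binds CD4, was 4.39 to 8.29 at 94 dpc (median 7.49), 3.88 to 7.77 at 1 dpn (7.11), 7.68 to 9.08 at 28 dpn (8.16) and 7.51 to 8.83 at 188 dpn (8.13). It rose by 1.55 ± 0.28 in period II (adjusted p = 9.81e-06) and did not pass in period III (−0.08). IL1B, the inflammasome product, had its highest median in the fetus (7.83, then 7.38, 7.56 and 7.08) and fell by 0.53 in period III (adjusted p = 0.00221). Its calls against 94 dpc did not pass with quantile normalization or centring, in period I (−0.51, adjusted p = 0.0448 as deposited) and over the whole span (−0.72, adjusted p = 6.4e-05 as deposited).

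The interleukin receptors held the steepest fall of any member. IL13RA1 pairs with IL4R to bind IL13 and IL4. Its log2 signal was 7.43 to 9.88 at 94 dpc (median 8.97), 9.06 to 10.71 at 1 dpn (9.73), 5.75 to 7.40 at 28 dpn (6.80) and 5.53 to 7.02 at 188 dpn (6.84). Both younger stages lay wholly above 188 dpn, and the newborn arrays wholly above 28 dpn. IL13RA1 rose by 0.82 ± 0.17 in period I (adjusted p = 0.000151), fell by 3.04 ± 0.15 on the log2 scale in period II (8.22-fold lower, adjusted p = 1.14e-17) and did not change beyond its spread in period III (−0.03 ± 0.14, adjusted p = 0.899).

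IL4R, its partner chain, went the other way. It was 9.70 to 10.30 at 94 dpc (median 9.94), 9.52 to 11.04 at 1 dpn (10.06), 10.54 to 11.18 at 28 dpn (10.93) and 10.98 to 12.06 at 188 dpn (11.16). All arrays at 188 dpn lay above all fetal ones. IL4R rose by 0.69 ± 0.12 in period II and 0.41 ± 0.099 in period III (adjusted p = 7.44e-06 and 0.00142), and by 1.37 ± 0.097 over the whole span. A second, dimmer probe-set that passed no filter gave −0.43 in period II. The mean of both did not pass there (0.13, adjusted p = 0.597).

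IL27RA, which carries the IL27 signal in T cells and blood precursors, was 7.88 to 9.20 at 94 dpc (median 8.89), 6.84 to 9.21 at 1 dpn (8.12), 7.64 to 8.64 at 28 dpn (8.16) and 6.05 to 7.71 at 188 dpn (7.16). It fell by 0.58 in period I (adjusted p = 0.0093) and by 1.03 in period III (SE 0.14, adjusted p = 7.47e-07), and over the whole span it fell by 1.64 with no overlap. IL11RA, the receptor of a cytokine of the IL6 family, was higher at both older stages. Its medians were 9.94, 9.75, 10.68 and 10.86, and it rose by 1.00 ± 0.11 in period II (adjusted p = 7.02e-10), when the highest newborn array (10.23) lay below the lowest array at 28 dpn (10.31). IL1R1, the signalling receptor of IL1, rose by 0.78 ± 0.17 in period I (adjusted p = 0.000182). Its increase in period III (0.52, adjusted p = 0.0207) did not pass with the 3′ to 5′ covariate (adjusted p = 0.0983).

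**Figure D4:**
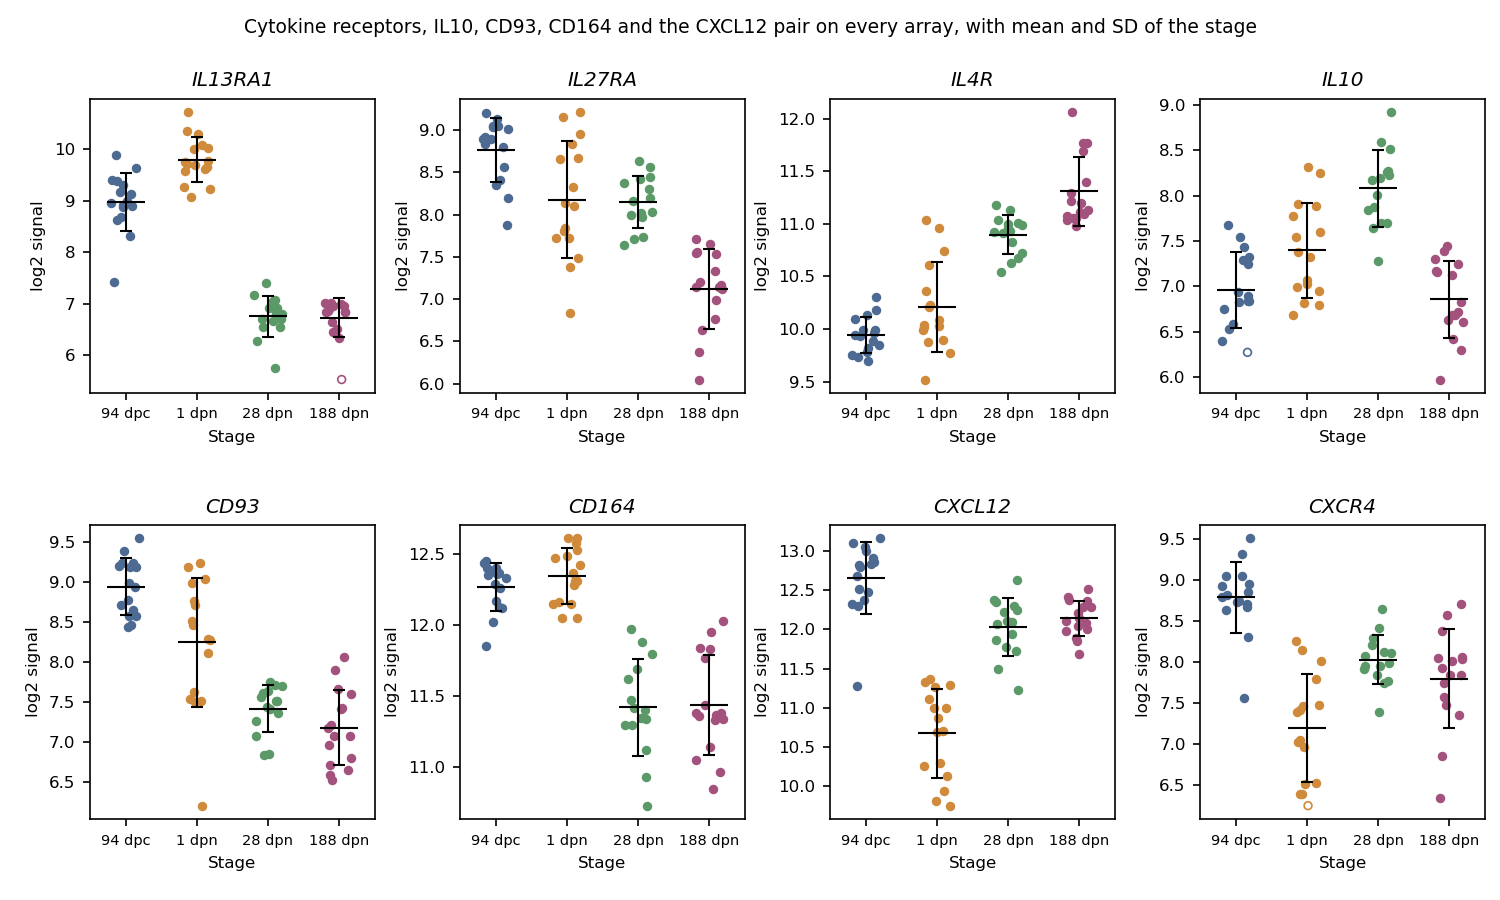
Log2 signal (y axis) of IL13RA1, IL27RA, IL4R, IL10, CD93, CD164, CXCL12 and CXCR4 on every array of the 4 stages (x axis). Filled points are above the array's background, open points are not, and black bars give the mean and SD of the stage. IL13RA1 and CD164 step down between 1 and 28 dpn without overlap, and CXCL12 and CXCR4 are lowest at 1 dpn.

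Of the 6 Toll-like receptors, TLR1, TLR2 and TLR4 were tested. TLR2 recognises bacterial lipoproteins together with TLR1 or TLR6. Its log2 signal was 2.49 to 7.83 at 94 dpc (median 6.42), 7.45 to 9.47 at 1 dpn (8.08), 7.72 to 9.81 at 28 dpn (9.00) and 6.87 to 8.97 at 188 dpn (7.95). Fetal arrays were low and widely spread, with 12 of 16 above background, and the lowest was array 6. TLR2 rose by 1.98 ± 0.34 in period I (3.94-fold, adjusted p = 7.93e-06, and 1.73 without array 6), rose again by 0.77 ± 0.19 in period II (adjusted p = 0.00068) and fell by 0.97 in period III (adjusted p = 0.000169). Its fetal median lay below the fetal array medians of 7.27 to 7.52, so the filter can favour the rise in period I.

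TLR1 moved in the opposite direction in period II. It was 6.50 to 7.84 at 94 dpc (median 7.17), 4.98 to 8.32 at 1 dpn (7.30), 4.16 to 6.36 at 28 dpn (5.81) and 3.54 to 6.51 at 188 dpn (5.65). It fell by 1.58 in period II (SE 0.23, adjusted p = 2.44e-07), and 7 of 16 arrays at 188 dpn exceeded background. TLR1 passed the filter through 1 dpn alone, where it is high, so the filter favoured this fall. TLR4, the receptor of lipopolysaccharide, had medians of 8.30, 8.21, 8.35 and 7.83 and fell by 0.46 in period III (adjusted p = 0.00563). Its probe-sets differed in period II, where the brightest gave 0.13 and 2 others −1.26 and −1.96, so no direction is given there. TLR6, TLR8 and TLR9 were near background with SDs up to 2.11 within a stage.

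CD14 and CD163 mark monocytes and macrophages, and both separated fetus from newborn completely. CD14, the co-receptor that hands lipopolysaccharide to TLR4, was 9.66 to 11.66 at 94 dpc (median 11.23), 11.95 to 13.34 at 1 dpn (12.75), 11.85 to 13.30 at 28 dpn (12.55) and 10.99 to 12.83 at 188 dpn (12.34). CD163, the macrophage receptor for haemoglobin bound to haptoglobin, was 7.47 to 10.72 at 94 dpc (10.11), 10.80 to 12.33 at 1 dpn (11.42), 10.20 to 12.00 at 28 dpn (11.36) and 9.67 to 11.07 at 188 dpn (10.34). Every newborn array lay above every fetal array for both genes, where 1.85% of all probe-sets tested were higher without overlap. CD14 rose by 1.58 ± 0.16 (adjusted p = 6.07e-10) and CD163 by 1.46 ± 0.22 (adjusted p = 1.26e-06), or by 1.49 and 1.29 without array 6.

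In period II neither passed (−0.04 and −0.20), although a second probe-set of CD14 rose by 1.23, and in period III CD163 fell by 0.97 (adjusted p = 1.11e-05). The fall of CD14 by 0.51 in period III passed neither with centring (adjusted p = 0.0787) nor in the rank-sum test (adjusted p = 0.065). CD14 and CD163 belong to the macrophage marker list too. Of its 9 genes on the array, 3 rose in period I, 6 rose in period II and all 9 fell in period III. Over all probe-sets tested 22.9% and 28.8% were higher in periods I and II, and 22.5% were lower in period III. The summed linear signal of the 9 macrophage markers ran from 2400 to 24400 at 94 dpc, 15700 to 38800 at 1 dpn, 45700 to 68600 at 28 dpn and 27900 to 50200 at 188 dpn. No gene of the list was below background on all arrays of a stage. The part of macrophage number in the changes of the other members was not tested.

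CD5L, a protein secreted by tissue macrophages, was higher at each later age. It was 11.38 to 12.37 at 94 dpc (median 11.86), 12.00 to 13.37 at 1 dpn (12.92), 13.06 to 13.68 at 28 dpn (13.29) and 13.33 to 14.08 at 188 dpn (13.63). It rose by 1.02 ± 0.13 in period I (adjusted p = 4.11e-08) and by 0.31 ± 0.078 in period III (adjusted p = 0.00193), and over the whole span it rose by 1.82 ± 0.099 with no overlap. In period II its 2 probe-sets were called in opposite directions (0.49 and −0.69).

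CD300C and CD83 changed most among the myeloid surface genes. CD300C, an activating receptor of monocytes and mast cells, was 2.61 to 7.40 at 94 dpc (median 3.82), 3.42 to 8.15 at 1 dpn (5.6), 7.96 to 9.65 at 28 dpn (8.98) and 5.21 to 8.41 at 188 dpn (7.43). It was above background on 1, 8, 15 and 15 arrays. It rose by 3.10 ± 0.41 in period II (8.56-fold, adjusted p = 7.65e-08) and fell by 1.58 in period III (adjusted p = 9.84e-07), the largest fall of a member there. CD300C entered period II through 28 dpn alone, where it is high, so the filter favoured the rise.

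CD83 marks mature dendritic cells and activated lymphocytes. It was 5.48 to 8.75 at 94 dpc (median 7.85), 3.03 to 7.77 at 1 dpn (5.85), 7.62 to 9.10 at 28 dpn (8.42) and 7.03 to 8.73 at 188 dpn (8.29). The newborns stood apart as the low and variable stage, with 7 of 16 arrays above background. CD83 fell by 2.39 in period I (5.23-fold lower, SE 0.40, adjusted p = 4.87e-06) and rose by 3.06 ± 0.38 in period II (adjusted p = 2.1e-08). It passed the filter through 94 dpc alone in period I and through 28 dpn alone in period II, so the filter favoured both changes. CD86, a costimulatory ligand for CD28, fell by 1.03 in period III (adjusted p = 0.000182). CD74, the invariant chain of MHC class II and named after its values were seen, had medians of 9.66, 9.46, 9.53 and 8.97.

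Of the 9 T and NK cell surface genes only CD3D, CD247 and CD8B were tested. CD3D, a chain of the T cell receptor complex, was 3.13 to 8.47 at 94 dpc (median 7.05), 3.43 to 7.15 at 1 dpn (6.47), 7.59 to 8.68 at 28 dpn (8.36) and 7.01 to 8.50 at 188 dpn (7.61). All arrays at 28 dpn lay above all newborn arrays. CD3D rose by 2.04 ± 0.26 in period II (4.12-fold, adjusted p = 2.57e-08) and fell by 0.67 in period III (adjusted p = 6.27e-05). Its increase over the whole span (0.65, adjusted p = 0.0442) did not pass without array 6 (adjusted p = 0.0661), and its fall in period III did not pass with all 63 arrays in the fit (adjusted p = 0.0676).

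CD247, the zeta chain used by T cell and NK cell receptors, was 4.13 to 7.77 at 94 dpc (median 7.27), 4.05 to 7.98 at 1 dpn (6.55), 7.68 to 9.37 at 28 dpn (8.36) and 8.31 to 9.78 at 188 dpn (9.04). Unlike CD3D it rose in both later periods, by 1.79 ± 0.27 and 0.67 ± 0.14 (adjusted p = 8.79e-07 and 0.000348), and 188 dpn lay wholly above 94 dpc. CD8B, a chain of the CD8 co-receptor, fell by 0.54 in period III (adjusted p = 0.00597). CD2, CD247, CD3D, CD3E and CD3G are among the 9 T and NK cell markers on the array. The 4 of these markers that were tested in period II, CD3D and CD247 among them, passed the filter through 28 dpn alone, where they are high, so the filter largely fixed the direction of their calls. The summed linear signal of the 9 was 317 to 839 at 1 dpn and 1280 to 3770 at 28 dpn. GNLY changed most, with mean log2 signals of 4.0 and 10.0, while PRF1 had 4.07 and 3.21. With no filter 8 of the 9 were higher at 28 dpn and none lower, beside 16.3% and 33.1% of all probe-sets. GNLY was above background on no newborn array and PRF1 on no array at 94 dpc or 28 dpn.

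Among B cell genes CD40 was tested. CD40, the receptor through which T cells help B cells and which macrophages and endothelium also carry, was 4.66 to 7.33 at 94 dpc (median 6.18), 4.57 to 7.05 at 1 dpn (6.39), 7.43 to 8.48 at 28 dpn (8.10) and 6.82 to 7.76 at 188 dpn (7.15). It rose by 1.80 ± 0.18 in period II with no overlap (adjusted p = 3.47e-10) and fell by 0.77 in period III (adjusted p = 2.61e-06). CD40 too entered period II through 28 dpn alone, where it is high, so the filter favoured the rise. Its 3 probe-sets rose by 1.80, 1.44 and 1.77. CD79B, a chain of the B cell receptor, was above background on 4, 3, 6 and 7 arrays, and CD38, an ectoenzyme of plasma cells and other leukocytes, on 9, 9, 15 and 6.

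**Figure D5:**
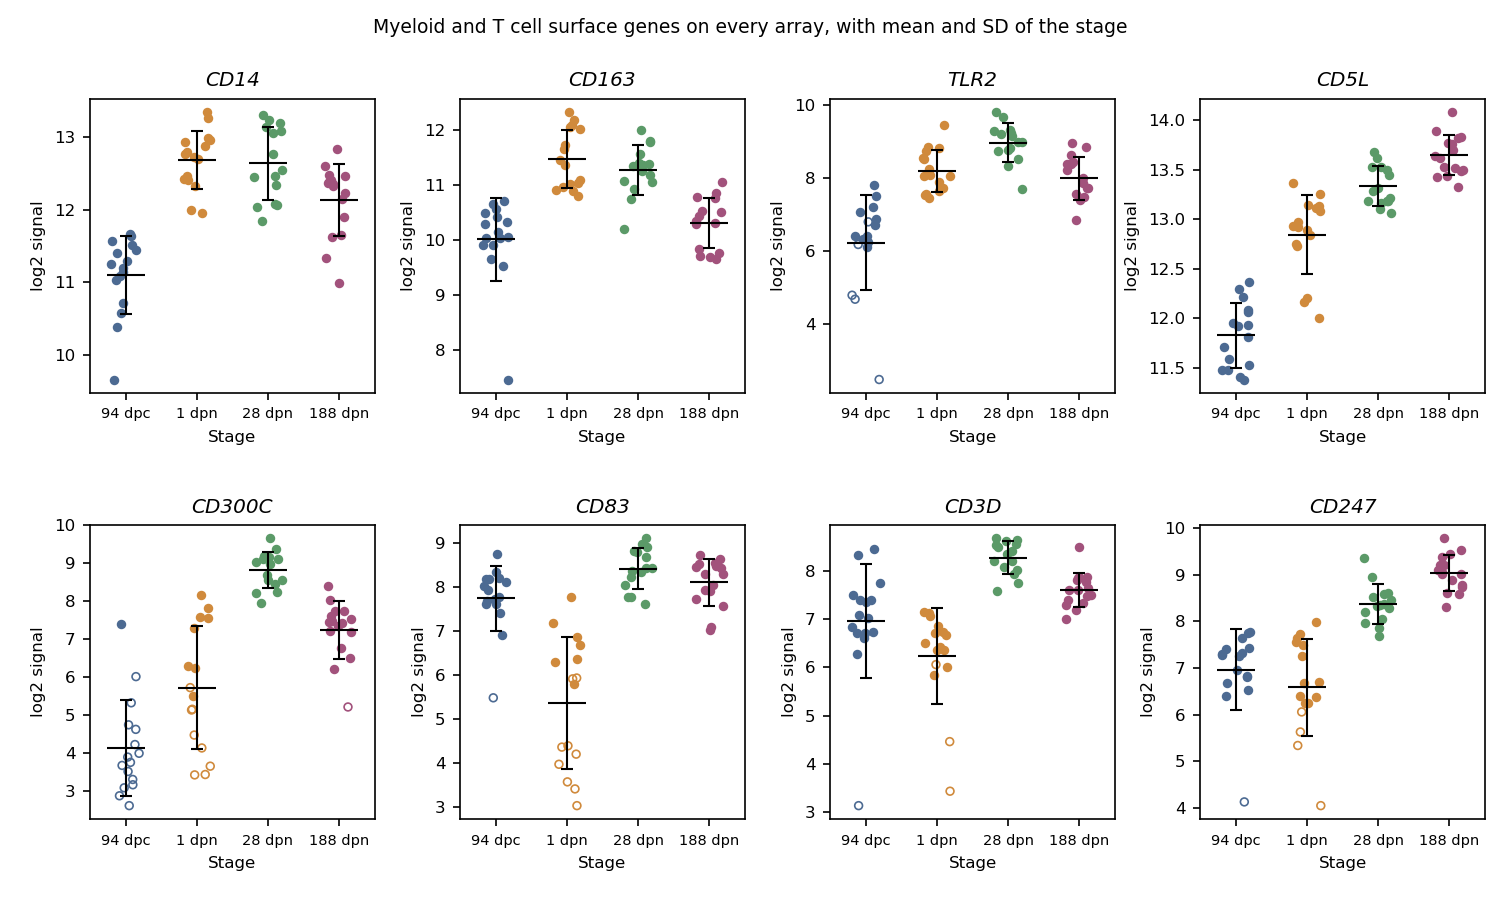
Log2 signal (y axis) of CD14, CD163, TLR2, CD5L, CD300C, CD83, CD3D and CD247 on every array of the 4 stages (x axis). Filled points are above the array's background, open points are not, and black bars give the mean and SD of the stage. All newborn points lie above all fetal points for CD14 and CD163, and CD83 is lowest and most spread at 1 dpn.

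Of the 16 widely expressed surface proteins, 14 were tested in period II. Of these 11 were higher and 3 lower, beside 28.8% and 42.9% of all probe-sets tested, with a median change of 0.64. In period III 1 was higher (7.14%), 4 were lower (28.6%) and 9 did not pass, beside 12.3% and 22.5% of all probe-sets tested. CD63, CD81 and CD82 are tetraspanins, which organise other membrane proteins. CD81 was 12.68 to 13.27 at 1 dpn (median 12.98) and 13.54 to 14.22 at 28 dpn (13.87), CD63 was 12.82 to 13.50 (13.16) and 13.63 to 14.14 (13.94), and CD82 was 9.36 to 10.12 (9.56) and 10.54 to 11.06 (10.71). None of the 3 overlapped between these stages. They rose by 0.85 ± 0.079, 0.77 ± 0.071 and 1.11 ± 0.078 (adjusted p = 4.79e-11, 4.83e-11 and 8.73e-14), although a second probe-set of CD82 gave −0.13 and did not pass. Over the whole span CD63 (0.44) and CD81 (0.49) were called higher as deposited but gave −0.03 and −0.01 with quantile normalization.

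CD53, a tetraspanin of leukocytes, was 7.68 to 10.11 at 94 dpc (median 9.50), 9.17 to 10.98 at 1 dpn (9.83), 11.01 to 11.78 at 28 dpn (11.44) and 9.91 to 11.17 at 188 dpn (10.53). It rose by 1.53 ± 0.13 in period II with no overlap (adjusted p = 1.4e-11) and fell by 0.91 in period III (adjusted p = 1.6e-07). CD47, the signal that keeps macrophages from engulfing a cell, was 10.08 to 10.79 at 94 dpc (median 10.45), 10.51 to 12.24 at 1 dpn (11.66), 11.85 to 12.72 at 28 dpn (12.13) and 11.54 to 12.14 at 188 dpn (11.85). All 3 of its probe-sets rose in period I (1.16, 0.86 and 0.23), whereas in period II they gave 0.52, 0.30 and −1.24 and over the whole span 1.38, 0.40 and −1.03, so no direction is given for these 2 comparisons.

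CD93, CD55 and CD9 had their highest median in the fetus, and CD164 was high in both fetus and newborn. CD93, found on endothelium and on early blood and myeloid cells, was 8.44 to 9.54 at 94 dpc (median 8.95), 6.21 to 9.23 at 1 dpn (8.37), 6.84 to 7.75 at 28 dpn (7.52) and 6.53 to 8.06 at 188 dpn (7.13). It fell by 1.76 over the whole span with no overlap (SE 0.14, adjusted p = 6.3e-13). Its fall of 0.83 in period II (adjusted p = 0.000879) did not pass with quantile normalization (adjusted p = 0.053). CD164, a sialomucin of blood precursors that occurs in many tissues, was 11.85 to 12.45, 12.05 to 12.61, 10.73 to 11.97 and 10.85 to 12.03 in order of age. It fell by 0.92 in period II (SE 0.10, adjusted p = 1.89e-09), and its 3 probe-sets all fell there (−0.92, −0.58 and −1.55).

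CD55, which protects cells from complement, fell by 1.64 in period I (medians 7.73 and 6.14, SE 0.19, adjusted p = 5.11e-09). It entered that comparison through 94 dpc alone, where it is high, so the filter favoured the fall. CD9, a tetraspanin of platelets and many other cells, had medians of 10.31, 9.00, 9.78 and 9.60, fell by 1.26 in period I (SE 0.12, adjusted p = 2.51e-10) and rose by 0.79 ± 0.10 in period II (adjusted p = 4.57e-08). CD46, another complement regulator, fell by 0.49 in period II as deposited (adjusted p = 0.00106) but did not pass with centring (adjusted p = 0.0534). CD151, a tetraspanin that binds laminin receptors, rose by 0.52 ± 0.14 in period II. All 3 platelet markers fell, from a median summed signal of 1360 at 94 dpc to 584 at 1 dpn on the linear scale, and all 5 neutrophil markers fell, from 5280 to 1620. All 6 red cell precursor markers fell in period I too, 4 of them without overlap, with a median change of −2.65 and a median summed signal of 22500 at 94 dpc and 2550 at 1 dpn. Over all probe-sets tested, 34.0% were lower in that period and 3.20% were lower without overlap. The falls of the marker lists stand beside those of CD9, CD55, CXCR4 and CXCL12. The part of these cells in those falls was not tested.

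Other genes of these pathways were read from a further list of 76 names, 42 of which are on the array. In period I 13 of 27 tested were higher and 7 lower, beside 22.9% and 34.0% of all probe-sets tested. In period II 16 of 30 were higher and 7 lower, beside 28.8% and 42.9%, and in period III 2 of 31 were higher and 12 lower, beside 12.3% and 22.5%. Over the whole span 16 of 32 were higher and 8 lower, beside 27.0% and 53.1%. With no filter on level, 14 of 42 were higher and 8 lower in period I, beside 13.2% and 21.7% of all probe-sets. In period II 14 were then higher and 11 lower, beside 16.3% and 33.1%. In period III 1 was higher and 12 lower, beside 5.77% and 11.1%, and over the whole span 17 and 10, beside 15.9% and 45.5%. LBP, which loads lipopolysaccharide onto CD14, rose by 2.44 ± 0.23 in period I (means 10.81 and 13.25, adjusted p = 1.1e-10). STAT3, the transcription factor of IL6 and IL10 signalling, rose by 1.56 ± 0.15 with no overlap of the arrays. TYK2, JAK2 and JAK3, kinases bound to cytokine receptors, fell by 0.95, 0.69 and 0.64 on the log2 scale in the same period, TYK2 with no overlap. Of the 27 genes tested 1 rose and 1 fell without overlap, beside 1.85% and 3.20% of all probe-sets tested.

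In period II IRF7, the regulator of type I interferons, rose by 2.99 ± 0.39 (means 6.31 and 9.30), LTB, a lymphotoxin chain of lymphocytes, by 2.61 ± 0.34 and JAK3 by 1.70 ± 0.15, all with no overlap. The newborn medians of IRF7 and LTB were 6.87 and 6.28, below the array medians of 7.05 to 7.41 at that stage. The filter can favour such rises. MAP3K7, a kinase downstream of Toll-like and IL1 receptors, fell by 1.86 and IFNAR1 by 1.75, both with no overlap. MYD88, the adaptor of Toll-like and IL1 receptors, fell by 0.83. Of the 30 further genes tested in period II 6 rose and 2 fell without overlap, beside 4.95% and 6.74% of all probe-sets tested. In period III IRF7 fell by 2.02 (SE 0.26, adjusted p = 3.03e-07), JAK3 by 1.01 and STAT5A by 0.61, and STAT3 and TOLLIP, an inhibitor of Toll-like signalling, rose by 0.57 and 0.26. Over the whole span STAT3 rose by 2.42 ± 0.094 and NFKBIA, the inhibitor of NF-kappa-B, by 2.16 ± 0.11, while PIAS1, JAK2 and MAP3K7 fell by 1.31, 1.35 and 1.38.

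The spread between animals of a stage was larger for the members than for other genes. Among genes above background on at least 50% of the arrays, the median within-stage SD of the members was 0.54, 0.63, 0.42 and 0.48 in order of age, against 0.40, 0.47, 0.38 and 0.42 over all such probe-sets. These are descriptions without a test, and SDs rise towards background. At 94 dpc the widest were CCR2 (SD 1.59), TLR2 (1.30), CD80 (1.26), IL1A (1.23) and CD3D (1.19), and at 1 dpn TLR9 (2.11), CD300C (1.63), CCL21 (1.58), TLR8 (1.20) and CCL8 (1.11). At 28 dpn CCL28 (1.36), IL2RA (1.19), CD69 (1.07), CD200 (1.04) and CXCL9 (0.93) led, and at 188 dpn IL21 (1.83), TLR6 (1.67), TLR9 (1.37), CD55 (1.18) and CCL24 (1.1). CXCL9 is the only one of the 28 dpn genes that was above background on every array, with a highest array at 12.12 and a median of 9.24.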

How the data were processed

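Liver RNA of 63 HP offspring had been hybridised to Affymetrix porcine arrays of 24123 probe-sets. The authors deposited log2 signals, and the submitters' processing notes name GCOS 1.1.1. The values fit a MAS5 type signal scaled to a trimmed mean of 500 on each array, with signals under 1 set to 0 on the log2 scale. The study's methods name GCRMA normalization, MAS5 detection, and a mixed model with sex, mother and weight. The deposited values do not look like GCRMA output, and sex, mother and weight could not enter the fits. Stages came from the labels.

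Symbols came from the platform annotation, and the 101 members' symbols all matched current RefSeq symbols. Control probe-sets (188) were left out. Stages were compared in pairs with limma 3.58.1 in R 4.3.3 (lmFit and eBayes, two-sided). The procedure was tested on simulated data. The number of arrays and the distance from background limit the precision. Sibs that could not be fitted, the scaling and disagreement between probe-sets of a gene limit it too.

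The members, roles, lists and rules were chosen with earlier results of these data known. Named are the 8 largest called changes in each direction of each comparison, called members without overlap, 3 members per role with the highest mean, the 5 with the largest SD of each stage, and up to 3 further signalling genes per direction. Any other member was picked with its values in view. Alternatives concerned the filter, scaling, samples in the fit, array weights, variance prior, test, threshold, probe-set per gene, leaving out arrays, and a covariate for the 3′ excess of added RNAs.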

Additional observations from a re-analysis of the deposited data

How the results depend on the processing

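Of 129 called changes of the 61 named members, 100 kept their call and sign under every other fit run, and 6 took the other sign under at least 1. With the mean of a gene's probe-sets, CD47 and CD5L in period II gave −0.14 and −0.10, and CXCL12 and IL1R1 over the whole span 0.09 and −0.09. With quantile normalization, CD63 and CD81 over the whole span gave −0.03 and −0.01. The cause was not tested. The number of members called stayed within 1.5 times of the reported one under the other fits except as follows. A filter at the 75th percentile, which tests fewer genes, gave 4 lower in period I, 16 lower in period III, and 22 higher and 5 lower over the whole span. Without a filter 12 were lower in period II and 21 over the whole span. Centring gave 7 lower over the whole span, and the mean of probe-sets gave 7 lower there and 7 lower in period I. Asking for a change of at least 2-fold left 7 higher and 6 lower in period I, 22 and 2 in period II, 1 and 5 in period III and 19 and 4 over the whole span. Array weights gave 15 lower in period I. Without array 6 of 94 dpc, 13 were higher and 14 lower in period I and 32 and 13 over the whole span. The 3′ to 5′ covariate, which covers the added RNAs and not actin, gave 40 higher and 5 lower in period II and 4 and 25 in period III. It was not run for comparisons with 94 dpc, where its range (0.23 to 0.46) lies below that of every later stage. No paired analysis was possible because the columns carry no replicate number that the labels give to several stages. Signals near background limit what can be said of the 44 members that were never tested.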

Other observations

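Several members that passed the filter in no comparison still differed without a filter on level, over all 23935 probe-sets. They were chosen after their values were seen. IL5, the growth factor of eosinophils, was above background on 7, 4, 1 and 1 arrays in order of age, with a log2 difference of −2.36 between 94 dpc and 188 dpn (adjusted p = 0.000208). IL7, which sustains lymphocytes, was above background on 1, 9, 11 and 13 arrays, with a difference of 1.24 (adjusted p = 0.000405). CD2, CD3E and CD3G of the T cell lineage gave 1.94, 1.04 and 1.54 between 1 and 28 dpn (adjusted p = 6.45e-05, 0.00403 and 0.000337). CD209, a lectin of dendritic cells and macrophages, gave 1.21 between 94 dpc and 1 dpn (adjusted p = 0.00554), when it was above background on 6 and 13 arrays. CXCL13, the attractant of B cells, gave −0.90 between the same stages (adjusted p = 6.4e-05) and CD200, an inhibitory ligand for myeloid cells, −1.44 between 94 dpc and 188 dpn (adjusted p = 2.14e-06).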
